A study of Mus musculus with 12 samples.

Results

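The 36 mitosis and spindle genes described here encode kinases and cyclins of mitotic entry, kinetochore and checkpoint proteins, spindle motors, cytokinesis proteins and chromosome proteins. They were taken from the deposited gene table by their symbols, each matched 1 row, and they make up 36 of the 49164 entries with counts. All 36 passed the filter on low counts that left 17697 genes for testing. RNA came from Six2-GFP+ nephron progenitors of fetal mouse kidneys, sorted in late gestation, at E17.5, and pooled over a litter. Each of the 12 libraries is therefore 1 litter, and litters are the replicates. The series asks what maternal ketosis does to the developing kidney.

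There were 4 litters in each of 3 arms, which the library names call K, BHB and normal. Mothers in the treated arms were fed a ketogenic diet, or the control diet with added β-hydroxybutyrate, a ketone body; those of the normal arm were fed the control diet alone. Which treated arm had which regimen is not settled by the labels. The K libraries have ketogenic titles, yet their treatment entry names the supplement, and for the BHB libraries it is the other way round. K and BHB are used here only as names of sets of libraries. Embryos of all 3 arms were heterozygous for the Six2-EGFP/Cre transgene, from wild-type CD1 outbred females mated with transgenic males, with parents 8 to 10 weeks old. The transgene puts GFP and Cre under Six2 control, so that the sort takes the cap mesenchyme and any daughter cell in which GFP persists. Embryos were not separated by sex.

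A dividing cell builds up mitotic cyclins and kinases in G2, assembles kinetochores and a bipolar spindle, and holds anaphase back with the spindle checkpoint until every chromosome is attached. The anaphase-promoting complex then destroys cyclin B and securin, and the central spindle and contractile ring divide the cell. Transcripts of these genes are low in G1 and peak in G2 and M phase, so in bulk RNA they follow how many cells are in those phases. In the cap mesenchyme, progenitors must divide both to keep their own number and to supply cells to new nephrons. Fewer cells of a type and less RNA per cell cannot be told apart in bulk libraries.

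Many genes of late cell cycle share promoter elements: the cell cycle genes homology region (CHR), bound by the DREAM and MuvB complexes, and CCAAT boxes, bound by NF-Y. Promoter windows of 300 bases, from 250 bases before to 50 after the annotated start, were taken from RefSeq on GRCm38.p6 and were found for 31 of the 36 genes. Aurkb, Ccna2, Cdc25c, Kif20a and Tpx2 were without a window. The windows of 6 genes are printed 5′ to 3′ on the gene's own strand because they are the first, by name, of the genes given below by library that hold CHR letters. They are Cdk1 at chr10:69352863-69353162 on the minus strand, Aurka at chr2:172370521-172370820 on the minus strand and Cenpa at chr5:30666636-30666935 on the plus strand. The others are Aspm at chr1:139454523-139454822 on the plus strand, Anln at chr9:22389157-22389456 on the minus strand and Cdc20 at chr4:118437294-118437593 on the minus strand. Capitals mark the letters TTTGAA (CHR) or CCAAT, or their reverse complements TTCAAA and ATTGG.
Cdk1: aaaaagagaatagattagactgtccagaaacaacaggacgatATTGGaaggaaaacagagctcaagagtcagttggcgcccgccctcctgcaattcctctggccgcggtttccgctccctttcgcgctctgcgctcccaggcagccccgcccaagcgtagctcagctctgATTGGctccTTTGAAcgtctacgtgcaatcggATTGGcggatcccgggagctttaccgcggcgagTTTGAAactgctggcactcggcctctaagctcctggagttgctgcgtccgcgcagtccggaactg
Aurka: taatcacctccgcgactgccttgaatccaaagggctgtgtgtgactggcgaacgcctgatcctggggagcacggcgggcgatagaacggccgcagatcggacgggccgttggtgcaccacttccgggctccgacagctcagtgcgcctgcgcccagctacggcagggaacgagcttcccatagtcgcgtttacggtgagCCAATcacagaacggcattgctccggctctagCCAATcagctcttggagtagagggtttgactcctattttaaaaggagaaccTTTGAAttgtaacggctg
Cenpa: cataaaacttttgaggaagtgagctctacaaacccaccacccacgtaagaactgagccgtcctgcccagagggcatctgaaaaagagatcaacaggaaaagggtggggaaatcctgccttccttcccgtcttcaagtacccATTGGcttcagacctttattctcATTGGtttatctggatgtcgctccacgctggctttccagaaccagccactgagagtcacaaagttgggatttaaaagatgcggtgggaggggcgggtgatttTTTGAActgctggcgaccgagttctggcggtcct
Aspm: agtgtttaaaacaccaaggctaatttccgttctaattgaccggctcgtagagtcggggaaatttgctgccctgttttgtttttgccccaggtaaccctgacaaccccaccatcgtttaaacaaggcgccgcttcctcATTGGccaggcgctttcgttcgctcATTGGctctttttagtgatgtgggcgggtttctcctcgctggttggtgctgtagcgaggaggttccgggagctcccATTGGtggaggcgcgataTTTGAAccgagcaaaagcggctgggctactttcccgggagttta
Anln: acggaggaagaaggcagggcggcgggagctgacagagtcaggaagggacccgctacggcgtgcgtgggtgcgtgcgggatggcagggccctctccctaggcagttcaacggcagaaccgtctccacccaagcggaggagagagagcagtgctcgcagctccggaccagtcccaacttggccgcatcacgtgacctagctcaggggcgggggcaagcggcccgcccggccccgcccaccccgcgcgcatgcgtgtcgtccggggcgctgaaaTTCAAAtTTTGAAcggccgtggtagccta
Cdc20: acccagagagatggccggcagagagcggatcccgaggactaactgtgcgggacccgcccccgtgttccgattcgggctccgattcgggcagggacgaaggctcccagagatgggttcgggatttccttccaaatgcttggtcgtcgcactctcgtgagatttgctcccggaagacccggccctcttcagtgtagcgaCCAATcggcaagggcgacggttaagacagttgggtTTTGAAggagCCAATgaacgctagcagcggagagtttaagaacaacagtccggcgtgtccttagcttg
Of these 6 windows, 5 hold both kinds of letters, and Anln holds a pair of CHR matches in opposite orientations but no CCAAT.

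CHR letters on either strand were found in 23 of the 31 windows (74.2%), against 20.2% of the 27025 genes in the same table. They stood in 56.5% of 62 other mitosis genes and in 13.8% of 29 DNA replication genes. Within 50 bases of the annotated start, a range chosen after the positions were seen, 21 of 31 genes (67.7%) held CHR letters, against 5.72% of all genes. CCAAT letters were found in 22 of 31 (71.0%), against 41.1% of all genes and 65.5% of the DNA replication genes. Both were present in 19 of 31 (61.3%), against 7.97% of all genes. CHR letters were not in the windows of Birc5, Bub1, Ccnb1, Cenpe, Mad2l1, Nuf2, Nusap1 and Pttg1. The variant TTCGAA was in 3 of 31 windows (9.68%), Bub1 among them, against 1.80% of all genes. A CHR and a CCAAT match can share at most 1 end base. Ect2 and Prc1 have a pair of windows each and count once. A match describes letters in a window and is neither a bound site nor a cause of any value below.

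**Figure D1:**
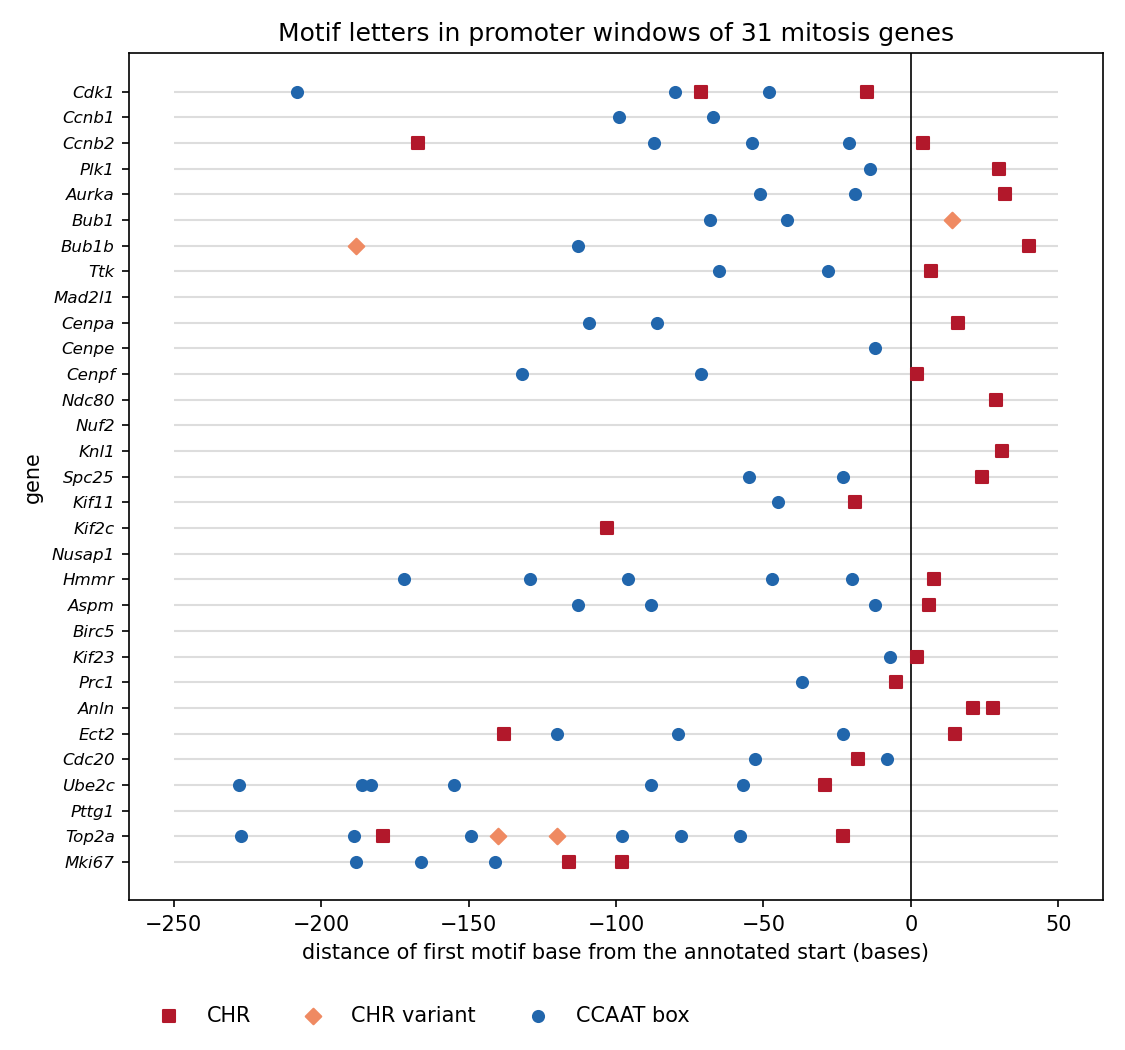
Positions of CHR (squares), CHR variant (diamonds) and CCAAT (circles) letters in the promoter windows of 31 mitosis genes, 1 row per gene, with the distance in bases from the annotated start at 0 on the x axis. CHR letters cluster around the start in 21 of the 31 genes, and CCAAT letters lie mostly upstream of it.

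Total counts per library ran from 7532784 to 12276119, and a mitosis gene had between 50 and 6068 counts in any library. Values below are CPM, counts scaled to the TMM-adjusted size of the library. Six2 was detected in every library, at 381, 441, 228 and 246 CPM in K 1 to K 4, at 258, 273, 449 and 319 CPM in BHB 1 to BHB 4, and at 460, 510, 379 and 432 CPM in normal 1 to normal 4. Markers of other kidney cells were present too. The summed level of 10 loop of Henle and distal tubule markers, Slc12a1 and Umod among them, was 871, 353, 3476 and 3123 CPM in K, 1921, 1901, 534 and 266 CPM in BHB, and 500, 198, 717 and 298 CPM in normal. All 10 were estimated higher in K than in normal (10 with an unadjusted edgeR p at or under 0.05), and all 10 in BHB (1 at that level). Of 17697 genes tested, 2142 were higher at that level in K and 1201 in BHB. In edgeR's fit of all 12 libraries none of the 10 had an adjusted p at or under 0.05. K 3, K 4, BHB 1 and BHB 2 stood apart by their loop and distal sums and are called the 4 marker-high litters below. The name refers to those sums only. Proximal tubule markers, 12 in all, summed to 497, 372, 2938 and 3217 CPM in K and 1279, 650, 1159 and 1479 CPM in BHB. In normal they summed to 317, 154, 915 and 1253 CPM. By that sum BHB 2 was below normal 3 and normal 4, and BHB 4 was above BHB 1. Results that moved are given with and without the 4 marker-high litters. Without them the K arm holds only K 1 and K 2, and the BHB arm only BHB 3 and BHB 4.

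No mitosis gene passed the threshold of an adjusted p of 0.05 in edgeR's quasi-likelihood test in any comparison. In K versus normal, 0 of 36 were called, where 0% of all 17697 genes were called. At an unadjusted p at or under 0.05 the count was 0 of 36, against 19.8% of all genes. Same-number K and normal litters had positively correlated deviations (0.114 to 0.461). Some pairs with different numbers did too, so pairing by number is not established. In a fit chosen after seeing the data, the replicate number was a block and K and normal litters were fitted alone. EdgeR then called 391 of 16746 genes in K versus normal (2.33%), 345 of them higher in K. Among these 345 were 9 of 12 endothelial, 7 of 12 proximal tubule, 4 of 10 podocyte and 3 of 5 leukocyte markers. So were 1 of 10 loop and distal and 1 of 10 stromal markers, but 0 of 11 ureteric and 0 of 7 erythroid markers. Of 15 progenitor markers 1 was called, lower in K. That fit called 0 of the 36 mitosis genes, and 0 of 36 had an unadjusted p at or under 0.05, against 24.4% of all genes. With the block and all 12 litters in the fit, 0 genes were called. In BHB versus normal, 0 of 36 were called (0% of all genes), and 0 of 36 had an unadjusted p at or under 0.05, against 11.8% of all genes. In K versus BHB the counts were 0 of 36 (0%) and 0 of 36 (8.23% of all genes unadjusted). For both treated arms together against normal they were 0 of 36 (0%) and 0 of 36 (18.8% unadjusted). For any difference among the 3 arms they were 0 of 36 (0%) and 0 of 36 (14.2% unadjusted). DESeq2 also called 0 of 36 in every comparison, although it called 205 genes in all in K versus normal and 73 in BHB versus normal. No mitosis gene had non-overlapping arms, a pattern shown by 10.1% of all genes in K versus normal, 8.62% in BHB versus normal, 4.06% in K versus BHB and 1.86% for both treated arms against normal.

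The estimates were small as well as uncalled. The median log2 fold change of the 36 genes was 0.05 in K versus normal, with a range of -0.16 to 0.32, 21 genes higher and 15 lower. It was -0.04 in BHB versus normal, with a range of -0.22 to 0.23, 14 higher and 22 lower. Over all 17697 genes the medians were 0.005 and 0.016, with 50.6% and 52.8% of estimates above 0. In K versus BHB the median was 0.09 (27 higher and 9 lower, range -0.15 to 0.32), and over all genes it was 0.011, with 52.4% above 0. Both treated arms together gave -0.02 against normal (16 higher and 20 lower, range -0.18 to 0.26), where 51.1% of all estimates were above 0. The sign of these medians rested on single litters. Without K 1, K 4 or normal 4 the K versus normal median was -0.02, -0.008 or -0.009, without K 2 it was 0.001, and without K 3 it was 0.16. Without BHB 3 or BHB 1 the BHB versus normal median was 0.09 or 0.03, and without BHB 4 it was -0.20. The K versus BHB median ran from -0.02 without BHB 3 to 0.22 without K 3 or BHB 4. Without the 4 marker-high litters, the medians were 0.15 in K versus normal, -0.05 in BHB versus normal and 0.23 in K versus BHB. That fit keeps only K 1 and K 2 in K, and BHB 3 and BHB 4 in BHB. BHB 3 and BHB 4 had the lowest and highest summed mitosis levels of all litters, 1589 and 2668 CPM.

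All 36 of the 95% intervals included 0 in each of the 4 comparisons between arms. In K versus normal the intervals reached from -0.72 (Cdc25c) to 0.88 (Ccnb1) on the log2 scale, which is 0.608-fold to 1.84-fold. In BHB versus normal they reached from -0.81 (Ccnb1) to 0.80 (Plk1), or 0.571-fold to 1.74-fold. A p that misses the threshold does not show equal expression. With 4 litters an arm, a change inside a gene's own interval remains compatible with its values.

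**Figure D2:**
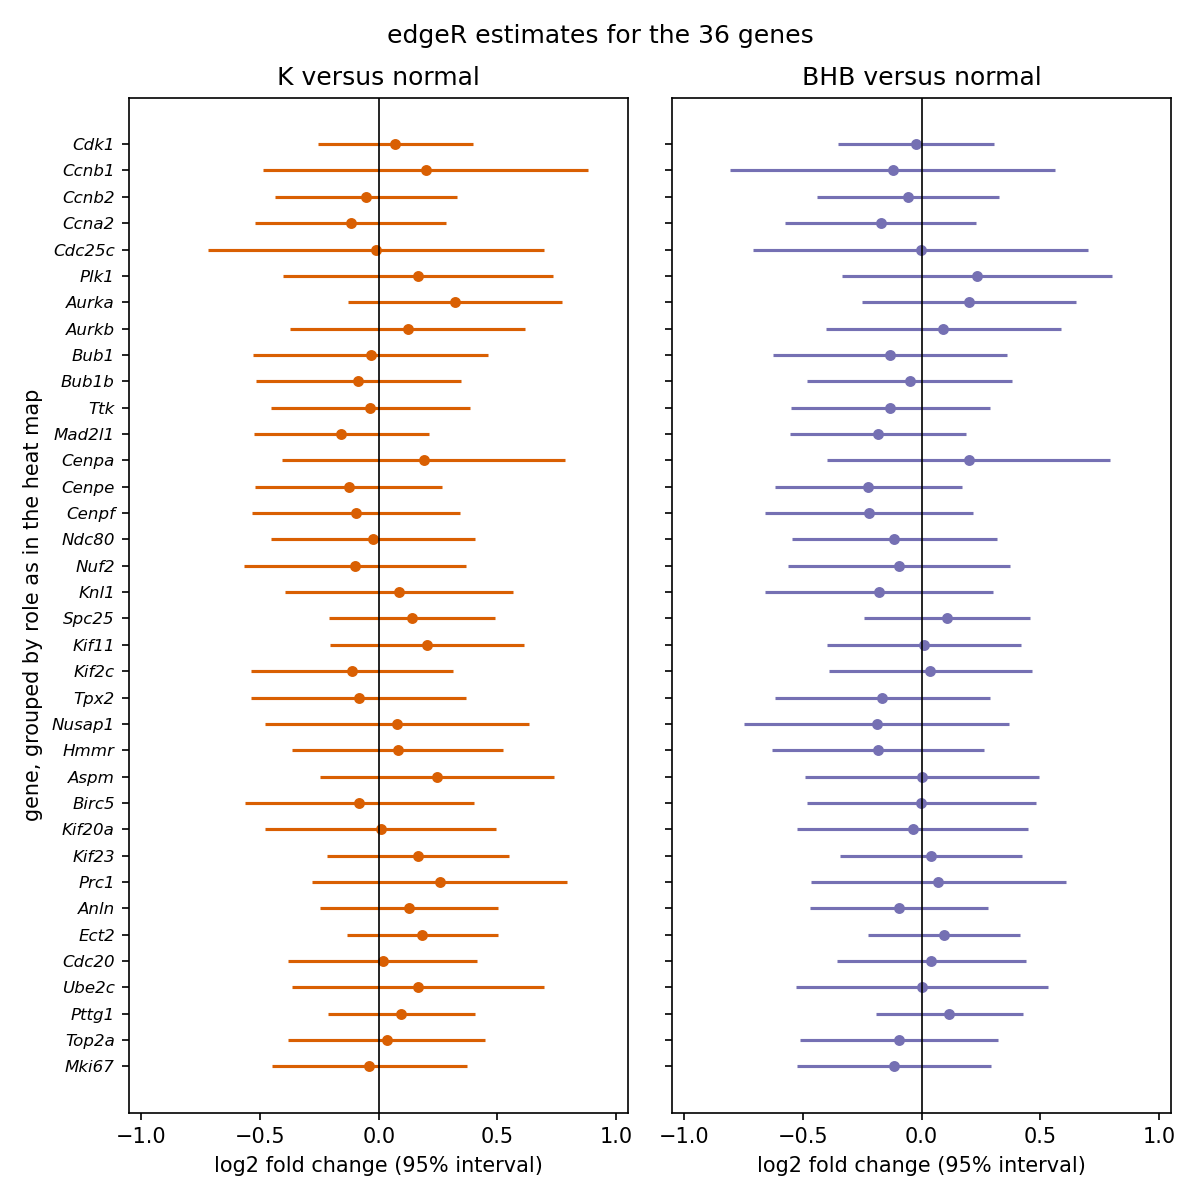
Log2 fold changes of the 36 genes from edgeR (points) with 95% intervals (lines) for K versus normal (left) and BHB versus normal (right), genes in rows ordered by role. Every interval crosses 0, and the point estimates lie between -0.16 and 0.32 in K and between -0.22 and 0.23 in BHB.

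Among the kinases and cyclins that bring cells into mitosis, Cdk1 is the kinase itself and Ccnb1, Ccnb2 and Ccna2 are its cyclin partners. Cdk1 had 36.9, 33.4, 29.8 and 41.0 CPM in K, 29.1, 37.5, 25.2 and 40.8 CPM in BHB, and 33.4, 38.1, 32.6 and 30.3 CPM in normal. Its arms overlapped throughout, with K 4 and BHB 4 highest and BHB 3 lowest. The log2 fold change was 0.07 (SE 0.15) in K versus normal and -0.02 (SE 0.15) in BHB versus normal, with edgeR adjusted p of 0.816 and 0.958. Aurka, the centrosomal kinase of spindle assembly, had the smallest p of the 36 genes in K versus normal. It had 16.8, 18.4, 12.6 and 19.9 CPM in K, 12.9, 17.8, 10.7 and 21.0 CPM in BHB, and 14.1, 15.7, 12.2 and 12.2 CPM in normal. Of the K litters, 3 were above every normal litter and K 3 was within their range, while BHB 2 and BHB 4 were above them and BHB 3 below. EdgeR gave a log2 fold change of 0.32 (SE 0.21) in K versus normal, with an adjusted p of 0.382, and 0.20 (SE 0.21) in BHB versus normal, with an adjusted p of 0.652.

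The other entry genes ran between 5.36 CPM (Cdc25c in K 3) and 50.2 CPM (Ccna2 in normal 1). Cdc25c, the phosphatase that activates Cdk1, had 8.86, 11.3, 5.36 and 15.4 CPM in K, 6.90, 13.6, 6.34 and 14.6 CPM in BHB, and 10.2, 10.3, 10.6 and 10.3 CPM in normal. The normal litters were nearly equal and the treated litters lay on both sides of them, so that the arm means were 10.2, 10.4 and 10.3 CPM in K, BHB and normal. The mitotic kinase Plk1 had estimates of 0.17 in K versus normal and 0.23 in BHB versus normal. The chromosomal passenger kinase Aurkb had 0.12 and 0.09, Ccnb1 had 0.20 and -0.12, Ccnb2 had -0.05 and -0.06, and Ccna2 had -0.12 and -0.17 on the same scale. The median of the 8 entry genes was 0.10 in K and -0.01 in BHB.

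The 4 spindle checkpoint genes had estimates below 0 in both treated arms, with medians of -0.06 in K versus normal and -0.13 in BHB versus normal. Bub1, a checkpoint kinase at the kinetochore, had 39.9, 35.6, 19.8 and 29.7 CPM in K, 22.2, 35.6, 23.7 and 35.7 CPM in BHB, and 37.1, 36.4, 28.4 and 26.3 CPM in normal. K 1 was the highest library and K 3 the lowest, so the K arm alone spanned the other arms. The estimate on the log2 scale was -0.03 (SE 0.23) in K versus normal and -0.13 (SE 0.23) in BHB versus normal, with edgeR adjusted p of 0.944 and 0.790. Mad2l1, the checkpoint protein that blocks Cdc20, had 33.7, 30.5, 20.8 and 24.0 CPM in K, 23.8, 29.4, 23.5 and 30.5 CPM in BHB, and 30.9, 37.6, 28.8 and 24.3 CPM in normal. Normal 2 was highest and K 3 lowest, and the arms overlapped. Its log2 fold change was -0.16 (SE 0.17) in K versus normal and -0.18 (SE 0.17) in BHB versus normal, with adjusted p of 0.616 and 0.609. Without normal 2 the BHB versus normal estimate was -0.07, and without normal 4 it was -0.28. For both treated arms against normal the Mad2l1 estimate was -0.17 with all libraries, and -0.05 either without the 4 marker-high litters or without normal 2. Bub1b and Ttk, the other checkpoint kinases, had estimates of -0.09 and -0.04 in K and of -0.05 and -0.13 in BHB.

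The 7 centromere and kinetochore genes had medians of -0.02 in K versus normal and -0.11 in BHB versus normal. Cenpa, the centromeric histone H3 variant, had 37.1, 36.9, 18.9 and 43.7 CPM in K, 22.6, 38.4, 26.6 and 50.3 CPM in BHB, and 34.2, 28.4, 30.1 and 27.1 CPM in normal. In K, 3 litters exceeded every normal litter and K 3 was below all of them, and in BHB a pair exceeded them and a pair were below. In edgeR the log2 fold change was 0.19 (SE 0.27) in K versus normal and 0.20 (SE 0.27) in BHB versus normal, with edgeR adjusted p of 0.713 and 0.737.

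Cenpe, the kinetochore motor that moves chromosomes to the spindle equator, had the smallest p in BHB versus normal. It had 169, 157, 91.5 and 142 CPM in K, 110, 149, 104 and 160 CPM in BHB, and 155, 155, 149 and 151 CPM in normal. The normal litters differed by a few percent, while K 3, BHB 3 and BHB 1 stood far below them. Its log2 fold change was -0.13 (SE 0.18) in K versus normal and -0.22 (SE 0.18) in BHB versus normal, with edgeR adjusted p of 0.710 and 0.559. Without BHB 3 the Cenpe estimate in BHB versus normal was -0.13, and without BHB 4 it was -0.34. The estimate for both treated arms against normal was -0.18 with all libraries and -0.06 without the 4 marker-high litters.

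Cenpf, a large kinetochore protein, had 216, 222, 125 and 220 CPM in K, 142, 216, 141 and 219 CPM in BHB, and 222, 228, 198 and 189 CPM in normal. The same 3 litters, K 3, BHB 3 and BHB 1, lay below every normal litter. The log2 fold change was -0.10 (SE 0.20) in K versus normal and -0.22 (SE 0.20) in BHB versus normal, with edgeR adjusted p of 0.810 and 0.598. Without BHB 3 the BHB versus normal estimate was -0.12, and without BHB 4 it was -0.33. Knl1, the kinetochore scaffold that recruits Bub1, had 65.5, 57.5, 32.1 and 57.8 CPM in K, 37.7, 52.5, 31.7 and 55.8 CPM in BHB, and 53.1, 54.3, 48.6 and 44.5 CPM in normal. Its K versus BHB log2 fold change of 0.26 (SE 0.22) was among the 3 with the smallest p in that comparison, with an adjusted p of 0.789. It was 0.13 without BHB 3, 0.45 without K 3 and 0.51 without the 4 marker-high litters. Ndc80, Nuf2 and Spc25 belong to the complex that grips microtubules. Their estimates were -0.02, -0.10 and 0.14 in K versus normal and -0.11, -0.09 and 0.11 in BHB versus normal.

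The 6 spindle genes had medians of 0.08 in K versus normal and -0.08 in BHB versus normal. Kif11, the motor that pushes the spindle poles apart, had 79.7, 73.1, 49.99 and 75.7 CPM in K, 52.6, 74.3, 43.8 and 73.2 CPM in BHB, and 67.1, 66.0, 57.9 and 51.0 CPM in normal. In K, 3 litters stood above every normal litter and K 3 just below them. EdgeR gave a log2 fold change of 0.20 (SE 0.19) in K versus normal and 0.008 (SE 0.19) in BHB versus normal, with edgeR adjusted p of 0.546 and 0.987. Aspm, a spindle pole protein, had 102, 95.7, 63.6 and 110 CPM in K, 73.0, 92.8, 47.4 and 101 CPM in BHB, and 88.1, 77.8, 82.3 and 64.6 CPM in normal. It showed the pattern of Kif11, with 3 K litters above the normal litters, with BHB 2 and BHB 4 also above them and BHB 3 below. The estimate on the log2 scale was 0.25 (SE 0.22) in K versus normal and 0.002 (SE 0.22) in BHB versus normal, with adjusted p of 0.541 and 0.997. In K versus normal it was 0.16 without K 4 and 0.39 without K 3.

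Hmmr, a microtubule-associated protein of the spindle, had 34.7, 39.0, 22.6 and 36.8 CPM in K, 24.0, 34.0, 18.9 and 34.3 CPM in BHB, and 34.1, 34.5, 29.8 and 27.7 CPM in normal. Its K versus BHB log2 fold change was 0.27 (SE 0.20), with an edgeR adjusted p of 0.771. It was 0.12 without BHB 3, 0.41 without K 3 and 0.50 without the 4 marker-high litters. Tpx2, which activates Aurka on the spindle, had estimates of -0.08 in K versus normal and -0.17 in BHB versus normal. The microtubule depolymerase Kif2c had -0.11 and 0.04, and the microtubule bundler Nusap1 had 0.08 and -0.19 on the same scale.

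The 6 genes of the spindle midzone and cytokinesis had medians of 0.15 in K versus normal and 0.02 in BHB versus normal. Birc5, the chromosomal passenger protein survivin, had 29.3, 20.7, 15.7 and 21.5 CPM in K, 17.2, 25.6, 17.49 and 32.2 CPM in BHB, and 26.9, 22.1, 23.1 and 20.2 CPM in normal. BHB 4 and K 1 were above the normal litters, and K 3, BHB 1 and BHB 3 below them. In edgeR the log2 fold change was -0.08 (SE 0.22) in K versus normal and -0.002 (SE 0.22) in BHB versus normal, with edgeR adjusted p of 0.858 and 0.998. Ect2, the exchange factor that activates RhoA at the division plane, had 55.5, 49.4, 36.2 and 54.1 CPM in K, 44.6, 52.0, 34.9 and 52.0 CPM in BHB, and 41.2, 46.9, 41.8 and 41.9 CPM in normal. K 1, K 2, K 4, BHB 2 and BHB 4 stood above every normal litter, and K 3 and BHB 3 below them. The log2 fold change was 0.18 (SE 0.15) in K versus normal, with an adjusted p of 0.482, and it was 0.12 without K 1 and 0.30 without K 3. In BHB versus normal it was 0.09 (SE 0.15), with an adjusted p of 0.773.

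Anln, anillin, which ties the contractile ring to the membrane, had 53.99, 50.2, 33.8 and 54.1 CPM in K, 36.8, 44.0, 31.2 and 53.0 CPM in BHB, and 47.2, 46.1, 42.6 and 39.9 CPM in normal. It had the smallest p of the 36 genes in K versus BHB, with a log2 fold change of 0.22 (SE 0.17) and an edgeR adjusted p of 0.769. Without BHB 3 it was 0.11, and without BHB 4 it was 0.37. Kif20a, Kif23 and Prc1 organise the central spindle. Their estimates were 0.009, 0.17 and 0.26 in K versus normal and -0.04, 0.04 and 0.07 in BHB versus normal.

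The 3 genes of anaphase onset had estimates at or above 0 in both treated arms, with medians of 0.09 in K versus normal and 0.04 in BHB versus normal. Cdc20, the activator of the anaphase-promoting complex, had 28.2, 24.8, 21.8 and 30.9 CPM in K, 22.2, 31.6, 19.1 and 34.8 CPM in BHB, and 30.4, 25.5, 25.1 and 23.5 CPM in normal. The arms overlapped, with BHB 4 highest and BHB 3 lowest. EdgeR gave a log2 fold change of 0.02 (SE 0.18) in K versus normal and 0.04 (SE 0.18) in BHB versus normal, with edgeR adjusted p of 0.967 and 0.935. The ubiquitin-conjugating enzyme Ube2c had 0.16 and 0.001, and securin (Pttg1) had 0.09 and 0.12.

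Top2a, the topoisomerase that untangles sister chromatids, had 309, 290, 198 and 258 CPM in K, 181, 277, 193 and 315 CPM in BHB, and 286, 284, 247 and 213 CPM in normal. Its log2 fold change was 0.03 (SE 0.19) in K versus normal and -0.09 (SE 0.19) in BHB versus normal, with edgeR adjusted p of 0.935 and 0.827. Mki67, the proliferation marker that coats mitotic chromosomes, had 588, 541, 354 and 532 CPM in K, 373, 568, 372 and 595 CPM in BHB, and 563, 538, 526 and 442 CPM in normal. In both genes K 3, BHB 1 and BHB 3 were the 3 lowest of the 12 litters, and BHB 4 and K 1 were the highest. The Mki67 log2 fold change was -0.04 (SE 0.19) in K versus normal and -0.12 (SE 0.19) in BHB versus normal, with adjusted p of 0.921 and 0.775.

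**Figure D3:**
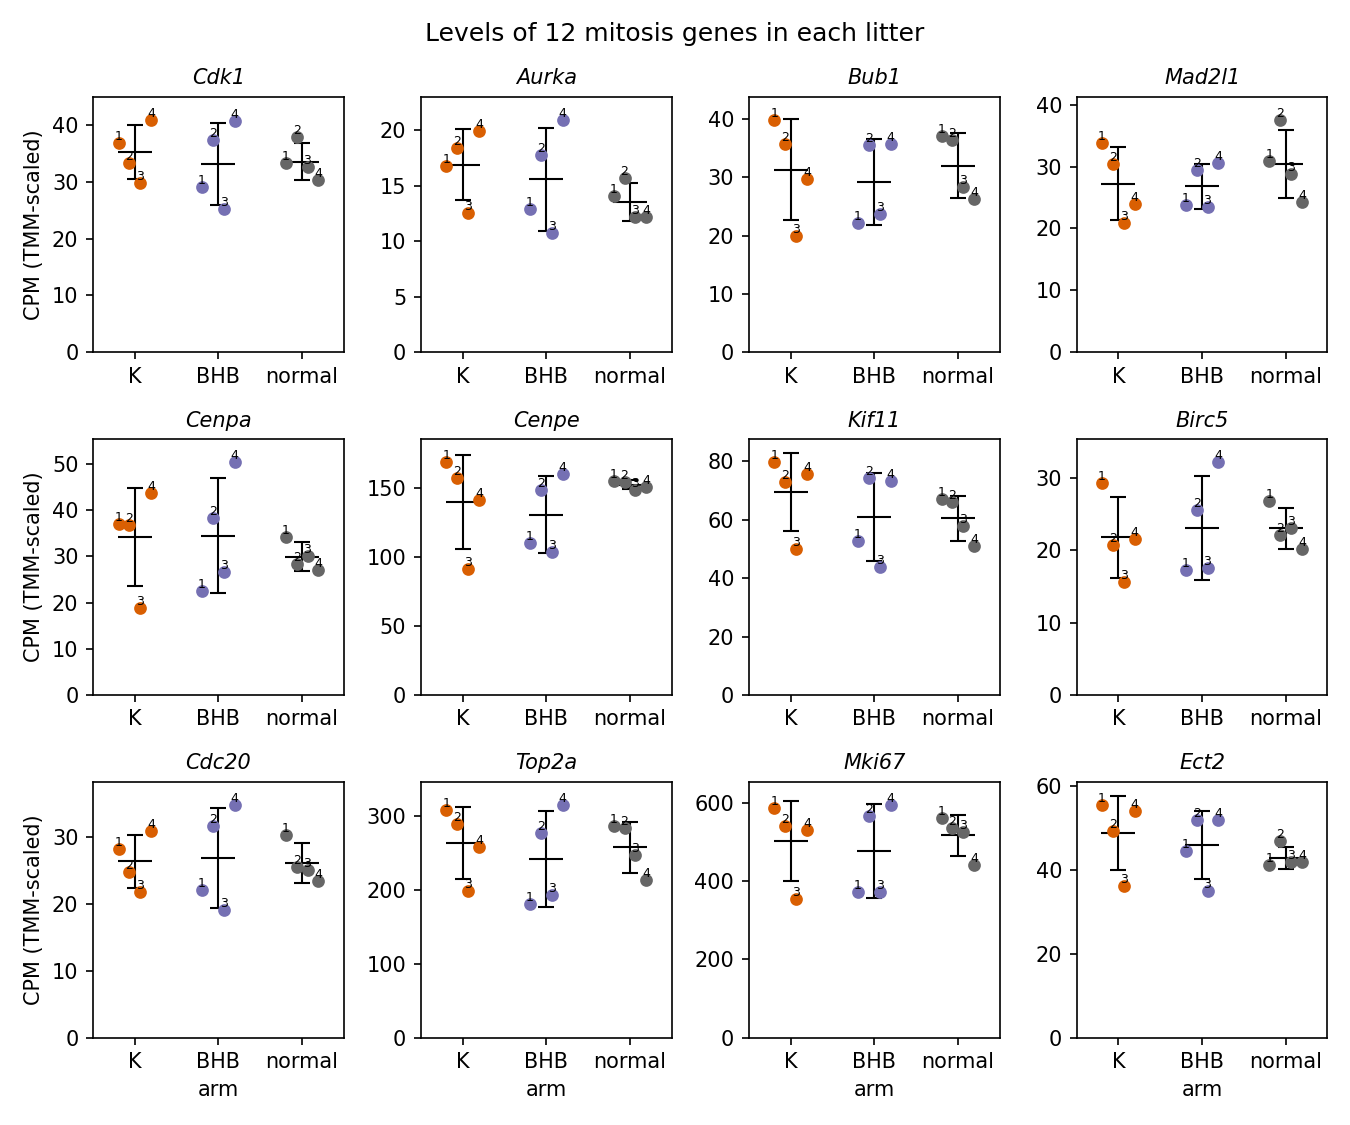
TMM-scaled CPM of 12 mitosis genes in K (orange), BHB (violet) and normal (grey) litters, with the replicate number beside each point and the arm mean ± SD (n = 4) as bars; each panel has its own axis from 0. In Cenpe the normal litters sit between 149 and 155 CPM, while K litters run from 91.5 to 169 and BHB litters from 104 to 160.

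Levels between genes were compared per kilobase of merged exons in GENCODE M21. Over all 12 libraries Mki67 was highest at 49.6 CPM per kilobase, followed by Top2a at 28.2, Tpx2 at 17.4, Ccnb2 at 17.2 and Cenpe at 16.4. Cdc25c was lowest at 2.098 CPM per kilobase, next to Mad2l1 at 3.36 and Ttk at 3.76. The order was set by the annotated exons, which hold alternative ends that these cells need not use. Exons of 8 of the 36 genes overlap a gene on the opposite strand, and whether counting used the strand is not stated in the labels. The overlap covers 29.3% of the exon length of Kif20a (with Cdc23), 22.8% of Ube2c (with Tnnc2), 12.7% of Cdc25c, 12.5% of Ccna2, 11.1% of Prc1, 7.1% of Plk1, 4.2% of Nusap1 and 2.8% of Cdc20. If counting ignored the strand, reads of those stretches cannot be assigned to 1 of the genes, so the values of these 8 genes are uncertain to that extent.

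Litters of a treated arm differed by more than the arm means did. The summed level of the 36 genes was 2573, 2406, 1595 and 2441 CPM in K, 1695, 2459, 1589 and 2668 CPM in BHB, and 2420, 2367, 2188 and 1956 CPM in normal. The means were 2254 ± 445 CPM in K, 2103 ± 541 CPM in BHB and 2233 ± 210 CPM in normal (SD, n = 4 each). K 3, BHB 1 and BHB 3 lay below every normal litter in this sum, and K 1, K 4, BHB 2 and BHB 4 above every one. As a share of all counts the 36 genes took 0.154% in K 3 and 0.159% in BHB 3, up to 0.279% in BHB 4. The normal litters took between 0.198% and 0.238%.

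The low litters were low in nearly every gene. BHB 3 was lowest of the 12 litters for 17 genes, K 3 for 16, BHB 1 for 2 and normal 4 for 1. BHB 4 was highest for 17 genes, K 4 for 8 and K 1 for 7. K 3 lay below every normal litter in 31 of 36 genes, BHB 1 in 27 and BHB 3 in 34. BHB 4 lay above every normal litter in 30, K 1 in 24, K 4 in 21, BHB 2 in 20 and K 2 in 15. Spc25, a subunit of the Ndc80 complex, was the single gene for which K 3 was not the lowest K litter. Its CPM was 41.1, 31.1, 43.8 and 45.1 in K, 33.8, 41.1, 32.0 and 50.7 in BHB, and 37.9, 39.9, 38.7 and 29.6 in normal.

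The median deviation of the 36 genes from the mean log2 CPM of the normal arm was 0.23, 0.13, -0.49 and 0.23 in K, -0.35, 0.16, -0.46 and 0.30 in BHB, and 0.16, 0.10, -0.04 and -0.16 in normal. Within K 3 the mean deviation by role ran from -0.60 for the checkpoint genes to -0.30 for the anaphase genes. Within BHB 3 it ran from -0.59 for the spindle genes to -0.41 for the anaphase and checkpoint genes. K 4 was uneven: its entry and anaphase genes averaged 0.36 and 0.37 above normal, while its checkpoint genes averaged -0.04 and the pair of chromosome genes 0.03. In BHB 4 every role group averaged between 0.18 and 0.42.

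**Figure D4:**
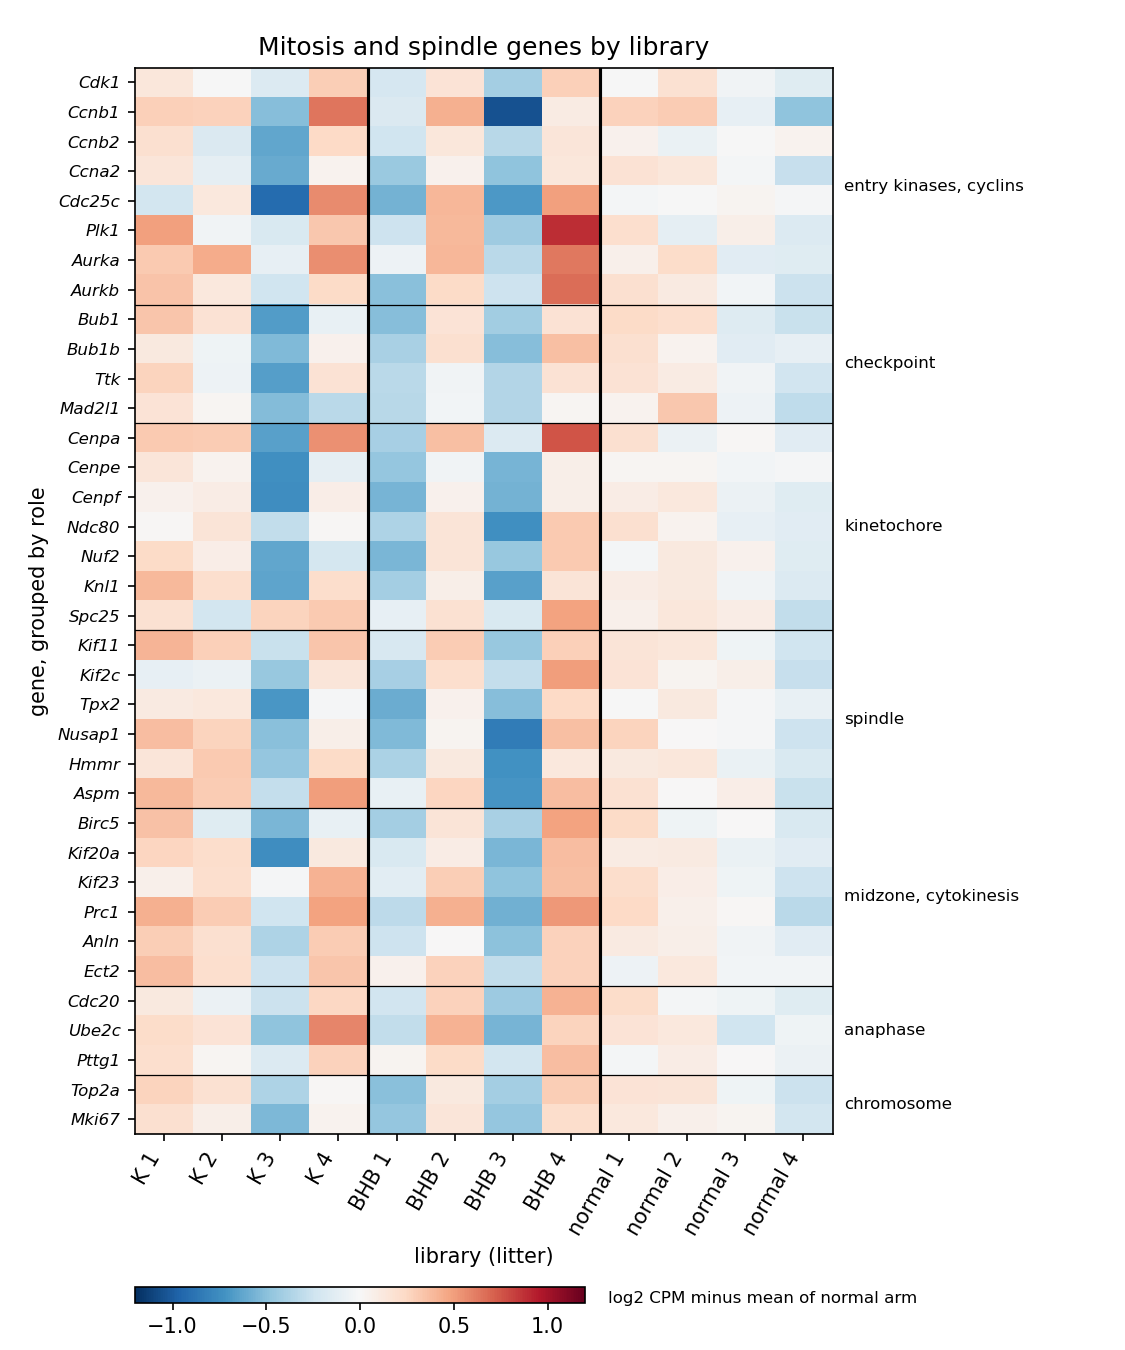
Log2 CPM of the 36 genes in 12 litters minus the mean of the normal arm, genes in rows by role and litters in columns, with blue below and red above the normal mean. The columns K 3, BHB 1 and BHB 3 are blue in nearly every row (median deviations -0.49, -0.35 and -0.46), and BHB 4 is red in nearly every row (0.30).

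The spread between litters was wider in the treated arms. The median SD of log2 CPM over the 36 genes was 0.33 in K, 0.40 in BHB and 0.16 in normal. Over all 17697 genes it was 0.26, 0.22 and 0.17. The SD exceeded that of the normal arm for 35 of 36 genes in K, against 70.4% of all genes, and for 35 of 36 in BHB, against 63.7% of all genes. The exceptions were Kif23 in K and Mad2l1 in BHB. Single genes ran from 0.19 (Kif23) to 0.63 (Cdc25c) in K, from 0.20 (Mad2l1) to 0.63 (Ccnb1) in BHB, and from 0.02 (Cdc25c) to 0.37 (Ccnb1) in normal. The 36 genes move together across litters, so these counts rest on 4 litters an arm and not on 36 separate observations, and no test was made of the spread.

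Levels of other-cell markers went with the mitosis sums in some litters and not in others. K 3 and BHB 1, both low in mitosis genes, had the highest podocyte marker sums, 847 and 1263 CPM. They also had the highest ureteric marker sums, 985 and 927 CPM. K 4 had 786 and 790 CPM in these sums, and BHB 3 had 393 and 208 CPM. K 3 and K 4 had nearly the same summed loop and distal level (3476 and 3123 CPM) and Six2 level (228 and 246 CPM), but mitosis sums of 1595 and 2441 CPM. BHB 3 had the lowest mitosis sum of all, 1589 CPM, with 534 CPM of loop and distal markers and a summed progenitor marker level of 3292 CPM, against 3132 to 3320.1 CPM in the normal litters. The progenitor sum, over 15 genes that were detected in every library, was 2954, 3246, 1957 and 2289 CPM in K and 2254, 2696, 3292 and 3029.98 CPM in BHB. Endothelial markers, Pecam1 and Cdh5 among 12, summed to 97.2, 72.5, 269 and 210 CPM in K, 399, 139, 65.2 and 34.7 CPM in BHB, and 47.1, 24.1, 38.2 and 30.8 CPM in normal. All 12 had estimates above 0 in both treated arms, and 11 of 12 had an unadjusted p at or under 0.05 in each. At that level 2142 of 17697 genes were higher in K and 1201 in BHB. In edgeR's fit of all 12 litters none of the endothelial markers was called. Leukocyte markers summed to 227.9 CPM in BHB 4, the litter with the highest mitosis sum, and to between 25.9 and 73.6 CPM in the others. The part of these cells in the mitosis values was not tested.

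Mitosis genes and DNA replication genes, which peak in S phase, were set side by side because both follow cycling cells. The list of 36 replication genes had a median log2 fold change of -0.24 in K versus normal, with 35 of 36 estimates below 0, and of -0.15 in BHB versus normal, with 32 below 0. None was called. In K, 7 of 36 had an unadjusted p at or under 0.05, all of them lower. Of all 17697 genes, 1360 did on the lower side, and 19.8% in either direction. In BHB 0 of 36 did, against 11.8% of all genes. In the K versus normal fit with the replicate block, 15 of 36 did, all lower in K, and none was called. In that fit 1498 of 16746 genes did on the lower side, and 24.4% in either direction. In K, 5 did not overlap with normal on the lower side, against 5.26% of all genes. Chaf1a, a chromatin assembly factor, had 108, 97.4, 72.6 and 79.1 CPM in K and 119, 131, 116 and 112 CPM in normal. The helicase subunit Mcm2 had 186, 171, 134 and 122 CPM in K and 207, 234, 190 and 196 CPM in normal. Their log2 fold changes were -0.42 (SE 0.13) and -0.43 (SE 0.14), each with an edgeR adjusted p of 0.221, and -0.21 and -0.20 without the 4 marker-high litters. The replication median without these 4 litters was -0.05 in K versus normal and -0.05 in BHB versus normal, and without BHB 1 alone it was -0.04 in BHB.

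The replication sum was 3164, 2859, 2198 and 2169 CPM in K, 2325, 2957, 2881 and 3214 CPM in BHB, and 3171, 3460, 3028 and 2854 CPM in normal. The ratio of the mitosis to the replication sum was 0.813, 0.842, 0.726 and 1.13 in K, 0.729, 0.832, 0.551 and 0.830 in BHB, and 0.763, 0.684, 0.723 and 0.685 in normal. K 4 had the highest ratio, with a replication sum as low as that of K 3, and BHB 3 had the lowest, with a replication sum within the normal range. K 3 was low in both sums and its ratio lay among the normal litters. The arms overlapped, at means of 0.877 ± 0.173 in K, 0.735 ± 0.132 in BHB and 0.714 ± 0.038 in normal (SD, n = 4 each).

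**Figure D5:**
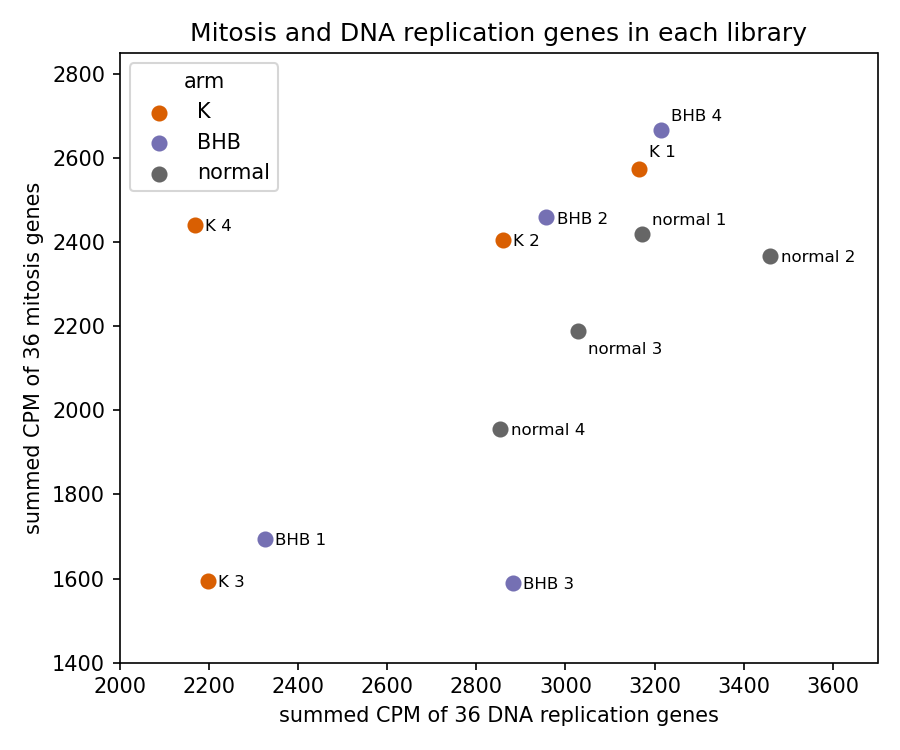
Summed CPM of the 36 mitosis genes (y) against summed CPM of 36 DNA replication genes (x) for 12 litters, with K orange, BHB violet and normal grey; neither axis starts at 0. K 3 and BHB 1 are low on both axes, BHB 3 is low in mitosis genes only, and K 4 is low in replication genes only.

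The rest of the mitotic machinery also had small medians, but its estimates ranged more widely. Of 74 other mitosis genes, 30 had estimates above 0 and 44 below in K versus normal (median -0.02, range -0.53 to 0.57). In BHB versus normal 32 were above and 42 below (median -0.02, range -0.69 to 0.60). For the mitosis genes described above the ranges were -0.16 to 0.32 and -0.22 to 0.23. None of the 74 was called. In K, 1 was higher and 2 were lower at an unadjusted edgeR p at or under 0.05. In BHB, 1 was higher and 1 lower at that level. Of all genes, 19.8% and 11.8% reached it in either direction. Mis12, a kinetochore anchor, had 24.2, 23.6, 24.2 and 19.7 CPM in K, 20.5, 18.4, 27.3 and 24.9 CPM in BHB, and 30.9, 31.3, 30.3 and 26.5 CPM in normal. Every K litter was below every normal litter, and 3 of the 4 BHB litters were. The estimate on the log2 scale was -0.37 (SE 0.13) in K versus normal and -0.38 (SE 0.13) in BHB versus normal, with edgeR adjusted p of 0.221 and 0.417, and without the 4 marker-high litters it was -0.31 and -0.19. Depdc1b had 5.24, 5.75, 6.33 and 8.87 CPM in K, 6.81, 7.68, 4.55 and 7.75 CPM in BHB, and 3.77, 4.90, 4.94 and 3.94 CPM in normal. Its log2 fold change was 0.57 (SE 0.22) in K versus normal and 0.60 (SE 0.22) in BHB versus normal, with adjusted p of 0.225 and 0.417. Without those 4 litters the estimates were 0.33 and 0.46.

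Of 17 subunits of the anaphase-promoting complex, 14 had estimates below 0 in K versus normal (median -0.09) and 12 in BHB versus normal (median -0.11), none called. At an unadjusted p at or under 0.05 there were 4 of 17 in K and 3 of 17 in BHB, all lower. On the lower side 1360 of 17697 genes reached that level in K and 888 in BHB. In either direction it was 19.8% and 11.8% of all genes. Anapc4 had 80.6, 79.6, 68.9 and 71.1 CPM in K, 69.8, 71.7, 76.5 and 83.1 CPM in BHB, and 82.6, 83.7, 92.6 and 97.1 CPM in normal. Its log2 fold change was -0.25 in K versus normal (edgeR adjusted p of 0.221) and -0.24 in BHB versus normal (adjusted p of 0.417), and -0.14 and -0.16 without the 4 marker-high litters. Anapc13 had estimates of -0.25 and -0.31, which were -0.25 in both arms without those litters.

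The transcription regulators of mitotic genes, 22 in all, had medians of -0.11 in K versus normal and -0.01 in BHB versus normal, none called. The retinoblastoma gene Rb1, a brake on S-phase genes, had 48.6, 38.5, 70.9 and 62.3 CPM in K and 38.2, 36.1, 38.4 and 38.3 CPM in normal. Its log2 fold change in K versus normal was 0.54 (edgeR adjusted p of 0.221), and 0.21 without the 4 marker-high litters. E2f4, a repressor subunit of DREAM, had 70.6, 74.0, 64.2 and 64.4 CPM in K and 85.5, 84.8, 77.5 and 72.7 CPM in normal, with a log2 fold change of -0.23 (adjusted p of 0.221) that was -0.14 without those litters. In BHB versus normal, Tfdp2 and E2f3, partner and member of the E2F family, had the smallest p of this list, with log2 fold changes of -0.16 and -0.25.

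Among 8 G1 cyclins and their kinases, Cdk6 and Cdk4 had the smallest p in K versus normal. Cdk6 had 27.2, 29.5, 43.9 and 48.8 CPM in K and 29.5, 20.2, 22.6 and 24.8 CPM in normal, a log2 fold change of 0.62, and Cdk4 had 242, 245, 193 and 166 CPM in K and 264, 297, 259 and 266 CPM in normal, a log2 fold change of -0.36. Both had an edgeR adjusted p of 0.221, and without the 4 marker-high litters the estimates were 0.23 and -0.15. In BHB versus normal, Ccnd1 (cyclin D1) had a log2 fold change of 0.33 (SE 0.14) and Ccne2 (cyclin E2) of -0.34 (SE 0.20). Their edgeR adjusted p were 0.418 and 0.465. Ccnd1 had 125, 194, 173 and 203 CPM in BHB and 148, 147, 133 and 127 CPM in normal, with BHB 1 lowest. The medians of the 8 genes were -0.25 in K versus normal and -0.11 in BHB versus normal, with none called.

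All 5 measurable CDK inhibitors of 7 listed had estimates above 0 in both treated arms, with medians of 0.37 in K versus normal and 0.19 in BHB versus normal, none called. Cdkn1b (p27) had 48.6, 48.6, 62.9 and 57.3 CPM in K and 44.9, 38.4, 42.0 and 44.3 CPM in normal, without overlap, and a log2 fold change of 0.36 with an edgeR adjusted p of 0.221. Cdkn1a (p21) had 17.9, 16.002, 57.8 and 44.0 CPM in K, 46.2, 23.6, 23.5 and 19.3 CPM in BHB, and 16.3, 15.3, 19.3 and 27.2 CPM in normal. K 3, BHB 1 and K 4 were the highest. They are also the litters with the highest marker sums for endothelium, loop and distal tubule, podocytes and ureteric epithelium. The part of any of these cells in the Cdkn1a values was not tested. Cdkn1c (p57), which podocytes express strongly, had 392 CPM in BHB 1 and between 114 and 229.8 CPM in the others. BHB 1 also had the highest podocyte marker sum, 1263 CPM. That sum counts Cdkn1c itself among its 10 genes, so it partly repeats the Cdkn1c value. The part of podocytes in the Cdkn1c value was not tested. In BHB versus normal the log2 fold changes of Cdkn1a and Cdkn1c were 0.53 and 0.59. They were 0.19 and 0.15 without BHB 1, and 0.14 and 0.05 without the 4 marker-high litters. In K versus normal Cdkn1b stood at 0.21 without them, and Cdkn2d, another inhibitor of Cdk4 and Cdk6, at 0.37 with and 0.33 without them.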

How the data were processed

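The authors deposited whole-number counts per Ensembl gene and a normalized signal, for 12 libraries of 4 litters an arm. The submitters' processing notes list HTSeq 2.01, DESeq2 1.36.0, cutadapt 2.10 and TopHat2 2.1.1 without saying what each did. The genome build, annotation and use of strand were not given in the sources used here. Per the labels' protocols, 50000 to 100000 sorted cells went into a kit that keeps the strand, sequenced as 100-cycle single reads. The deposited signal equals the count over 1 size factor per library (0.80 to 1.23) and entered no test. Of 55414 entries, 6250 had blank counts and 49164 were used. In R 4.3.3, edgeR 4.0.16 with limma 3.58.1 filtered genes (filterByExpr, minimum count 10, total 15), scaled them by TMM and fitted 1 robust quasi-likelihood model to all 12 libraries with a mean per arm and 9 residual degrees of freedom. P-values were adjusted by Benjamini-Hochberg over all 17697 genes tested, at a threshold of 0.05. Log2 CPM used a prior count of 2.

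The members and lists were chosen with earlier results of these data known. Values by library are given for the 3 members with the smallest p in each comparison between arms and for 8 representatives of the roles, and a few others were added after their values were seen (Cdc25c and Spc25). From each other list of cell cycle genes, the 2 with the smallest p in K versus normal and in BHB versus normal are named, and cell type lists are given by their summed level in place of single genes. Same-number litters were checked for pairing by the correlation of their deviations from the arm means over all genes tested. All 4 same-number pairs of K and normal litters exceeded 0.1 (0.114 to 0.461), and a fit of these arms with the number as a block was run. Some different-number pairs were as high, 0.464 for normal 2 with K 1 and 0.442 for normal 3 with K 4. Others were negative, down to -0.526 for normal 2 with K 4. The correlations therefore do not establish that a shared number pairs litters. The labels do not say what a shared number marks. Alternatives were DESeq2 1.42.0 and its size factors, no filter, a replicate block, fits of the compared arms alone and left-out litters. Exon lengths and overlaps came from GENCODE M21. The edgeR steps were run on simulated counts with known fold changes. Those counts were drawn independently for each gene, without differences shared by the genes of a litter. They check that the steps run as meant, and not their error rates in these data. Precision is limited by 4 litters an arm.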

Additional observations from a re-analysis of the deposited data

Results flagged for a closer look

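In 5 of the 36 genes, 1 litter lay far from the other 3 of its arm, by the ratio of its gap to the whole range of the arm in log2 CPM against Dixon's critical value for 4 samples. Of 108 arms and genes checked 5 exceeded it, and chance flags about 1 in 20. In 4 genes the litter was K 3, below the rest of K. For Cenpf the ratio was 0.948, with 124.8 CPM in K 3 and 215.7 to 222.3 CPM in the other K litters. For Kif20a it was 0.858 (19.5 CPM in K 3, 35.6 to 39.3 CPM in the others), for Anln 0.843 (33.8 CPM, others 50.2 to 54.1 CPM) and for Tpx2 0.837 (53.0 CPM, others 85.3 to 93.5 CPM). For Ect2 the ratio was 0.876 in the normal arm, where normal 2 had 46.9 CPM and the other normal litters 41.2 to 41.9 CPM. The 36 genes share their libraries, so these flags are not independent of each other.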

How the results depend on the processing

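No mitosis gene was called in any comparison under any alternative run. Over all genes, where edgeR called 0, counts were 205 (K versus normal), 73 (BHB versus normal), 16 (K versus BHB), 218 (both treated arms versus normal) and 100 (any difference) with DESeq2, and 2, 2, 0, 4 and 5 without a filter on low counts. Without K 3, K 4, BHB 1 and BHB 2 they were 12, 5, 36, 0 and 32. Leaving out 1 litter at a time gave 0 to 4 genes in K versus normal (4 without BHB 1, 1 without normal 4), 0 to 1 for any difference (1 without normal 4) and 0 otherwise. All 4 same-number pairs correlated above 0.1 in K versus normal, but 1 of 4 did in BHB versus normal. In K versus BHB 0 of 4 did, with values from -0.441 to -0.216. Only 1 of 12 litters correlated best with its own number, so the numbers are not shown to pair litters. With a replicate block on all litters, 0 genes were called in all 5 comparisons, and the medians of the 36 genes were 0.02, -0.08, 0.08 and -0.06 for the first 4. With the replicate block and K and normal litters alone, a fit chosen after seeing the data, 391 genes were called in K versus normal, 0 of them mitosis genes; the block changed no other call. Why these counts differ was not tested. With 4 litters an arm, differences inside a gene's own interval are not excluded.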
